A study of Homo sapiens with 4 samples.

Results

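The 10 genes described here encode the tubulin isotypes TUBB1, TUBB, TUBB2A, TUBB2B, TUBB3, TUBB4B and TUBB6 (7 beta-tubulins) and TUBA1A, TUBA1B and TUBA4A (3 alpha-tubulins). They were chosen by gene symbol from a deposited table of 58274 gene identifiers, and each had a single row in it. The cells were BC1, an established human line of induced pluripotent stem cells, taken through stepwise hematopoietic differentiation in culture. Activin A and BMP4 were given for the first 2 days, followed by VEGF and bFGF. RNA was sequenced from undifferentiated BC1 cells, which received no differentiation factor, from APLNR+ mesoderm cells collected at day 2, from CD31+CD34+ hemogenic endothelial progenitors at day 5 and from CD43+ hematopoietic progenitor cells at day 8. All 4 populations derive from the same cell line, and no genetic change or inhibitor is named for any of them. There was 1 library per population, so no difference below has a replicate check and no test was made.

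The unit throughout is FPKM, the fragments of a gene scaled to its transcript length and to the depth of the library, which is a level per length and allows genes to be compared within a library. Changes are differences of log2(FPKM + 1), a scale that understates the change of low genes. A gene is said to have risen or fallen when this difference was at least 1, and the background was the 17137 genes that reached 1 FPKM in some library. All 10 tubulin genes passed that filter. Folds are FPKM ratios with exact Clopper-Pearson 95% intervals that cover counting error only, not the variation between cultures. For genes outside the 10, the width of the interval also depends on a gene length that was set differently. The depth read from the table was 19700000 to 23600000 mapped fragments per library. In libraries of sorted cells, fewer cells of a type and less RNA per cell cannot be told apart.

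The labels were checked against marker genes. POU5F1, a pluripotency factor, stood at 1997 FPKM in BC1 and at 0.235 FPKM in CD43+ cells. APLNR, the receptor used for sorting, was highest in APLNR+ cells, at 1073 FPKM. CDH5, which encodes VE-cadherin, was highest in CD31+CD34+ cells, at 224 FPKM, and PECAM1, which encodes CD31, was at 93.1 FPKM there and 126 FPKM in CD43+ cells. SPN, which encodes CD43, was highest in CD43+ cells, at 92.4 FPKM, as was the erythroid and megakaryocytic factor GATA1, at 190 FPKM.

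Microtubules are built from dimers of alpha- and beta-tubulin, and each partner is encoded by several genes whose protein products are called isotypes. The isotypes resemble each other closely over the folded body and differ most in the acidic carboxy-terminal tail, which projects from the microtubule surface and is where many modifying enzymes and motor proteins act. TUBB1 is the beta-tubulin of megakaryocytes and platelets, where it forms the marginal band, a ring of microtubules beneath the platelet membrane. TUBB3 is the classical neuronal beta-tubulin, TUBB2A and TUBB2B are abundant in the nervous system, TUBB and TUBB4B are expressed broadly, TUBA1B is a ubiquitous alpha-tubulin, and TUBA4A is abundant in platelets.

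The end of the coding sequence, without the stop codon, is shown for beta-tubulins because it encodes the tail. It sets most of the isotypes apart, but TUBB2A hardly from TUBB2B. Each stretch is the last 60 coding bases of the principal transcript, written 5′ to 3′ with GRCh38 coordinates. A capital marks a base that differs from the aligned base of TUBB2B, the most abundant beta isotype of BC1, or that has no counterpart there.
TUBB2B, chr6:3224754-3224813, minus strand: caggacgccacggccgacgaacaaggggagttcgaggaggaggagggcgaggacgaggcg
TUBB2A, chr6:3153866-3153925, minus strand: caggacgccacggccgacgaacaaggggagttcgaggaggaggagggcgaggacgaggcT
TUBB3, chr16:89935742-89935801, plus strand: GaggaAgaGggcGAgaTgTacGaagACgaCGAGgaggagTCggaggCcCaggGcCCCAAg
TUBB6, chr18:12326068-12326127, plus strand: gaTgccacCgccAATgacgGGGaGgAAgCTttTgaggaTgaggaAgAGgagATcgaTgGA
TUBB4B, chr9:137243494-137243553, plus strand: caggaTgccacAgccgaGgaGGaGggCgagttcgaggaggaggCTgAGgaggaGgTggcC
TUBB1, chr20:59024721-59024780, plus strand: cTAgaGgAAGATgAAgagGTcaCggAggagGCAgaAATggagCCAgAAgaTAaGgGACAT
TUBB1 carried 33 capitals, the most among the beta members, against 24 in TUBB3, 23 in TUBB6, 18 in TUBB, 14 in TUBB4B and 1 in TUBB2A. Over the whole coding sequence, TUBB1 shared 74.4% to 76.2% of aligned bases with the other beta members. TUBB2A and TUBB2B were identical at 98.2% of aligned bases, with 24 bases different, and TUBA1A and TUBA1B at 97.2%. TUBA4A shared 85.7% with TUBA1B.

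The sequence likeness bears on how surely fragments can be given to a gene. No run of 100 bases in the TUBB1 or TUBB6 transcript occurs in another gene's transcripts, and for TUBA4A, TUBB4B and TUBB the shared share of such runs was 1.84%, 2.86% and 5.10%. It reached 18.3% for TUBA1A, 37.2% for TUBA1B, 46.2% for TUBB2B and 56.4% for TUBB2A, where 814 runs were common to TUBB2A and TUBB2B. For these genes, the values depend on how the authors' counting split shared fragments and are uncertain to that extent. For TUBB3 the share was 89.0%, all of it with AC092143.1, an overlapping gene annotated over the same locus. For runs of 50 bases the shares were 5.25% for TUBA4A, 9.89% for TUBB4B, 18.2% for TUBB, 41.1% for TUBA1A and 62.7% for TUBA1B. They were 52.2% for TUBB2B, 65.5% for TUBB2A, 89.4% for TUBB3 and 0.993% for TUBB6, with still none for TUBB1. The TUBA1A locus overlaps that of TUBA1C on the opposite strand, and whether the counting used strand is not given in the sources used here.

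TUBB1 lies at chr20:59019254-59026654 on the plus strand and was almost absent until the last step. Its level was 0.0637 FPKM in BC1, 0.216 FPKM in APLNR+ cells, 0.238 FPKM in CD31+CD34+ cells and 68.9 FPKM in CD43+ cells. The first 3 libraries held about 4, 15 and 18 fragments of it and the CD43+ library about 4765, so CD43+ cells alone were high. From CD31+CD34+ to CD43+ cells TUBB1 rose by 5.82 on the log2 scale, a ratio of 290-fold (95% interval 184 to 491). None of the other 9 genes was so low in BC1 or changed so much at that step.

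TUBA4A, at chr2:219249711-219278170 on the minus strand, was the only one of the 3 alpha members that rose at the last step, and it started from a higher base than TUBB1. Its values were 52.2 FPKM in BC1, 20.9 FPKM in APLNR+ cells, 10.2 FPKM in CD31+CD34+ cells and 107 FPKM in CD43+ cells. The gene thus ran through a trough at day 5, with BC1 in between. It fell by 1.28 from BC1 to APLNR+ cells, a level 2.50-fold lower (2.30 to 2.71). The next difference, -0.97, did not pass the threshold (it passed with a pseudocount of 0.1, at -1.03). From CD31+CD34+ to CD43+ cells it rose by 3.26, or 10.4-fold (9.47 to 11.5). Between BC1 and CD43+ cells the difference was 1.02, just past the threshold, and it was 0.95 with FPKM rescaled to equal sums.

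The rise of these 2 genes came together with that of megakaryocyte and platelet genes. Of the 16 genes of that list, 14 rose from CD31+CD34+ to CD43+ cells and 1, VWF, fell, with a median difference of 3.95 beside -0.08 over all genes. Of all genes 7.63% rose and 13.5% fell at that step. The summed level of the list was 16.2 FPKM in BC1, 6.46 FPKM in APLNR+ cells, 137 FPKM in CD31+CD34+ cells and 4087 FPKM in CD43+ cells. PF4, which encodes platelet factor 4, rose from 14.4 to 1674 FPKM, PPBP, another platelet chemokine, from 0.194 to 256 FPKM, and ITGB3, the beta subunit of the platelet fibrinogen receptor, from 6.68 to 501 FPKM. From APLNR+ to CD31+CD34+ cells 8 of the 16 genes did not pass the threshold, as TUBB1 did not. The other 8 had already risen there, including ITGA2B, the alpha subunit of that receptor, from 3.74 to 60.9 FPKM. Of all genes 13.0% rose between these populations. Among the genes listed at 0 were CLEC1B in the first 3 libraries, GP6 and GP9 in the first 2, TREML1 in BC1, and GP5, PF4, SELP and RAB27B in APLNR+ cells. Erythroid genes moved as well, with 12 of 14 rising at the last step, a median difference of 4.40 and a summed level that went from 162 to 12181 FPKM, so the CD43+ library carried RNA of both lineages. The part that the share of megakaryocytic cells has in the tubulin values was not tested.

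**Figure D1:**
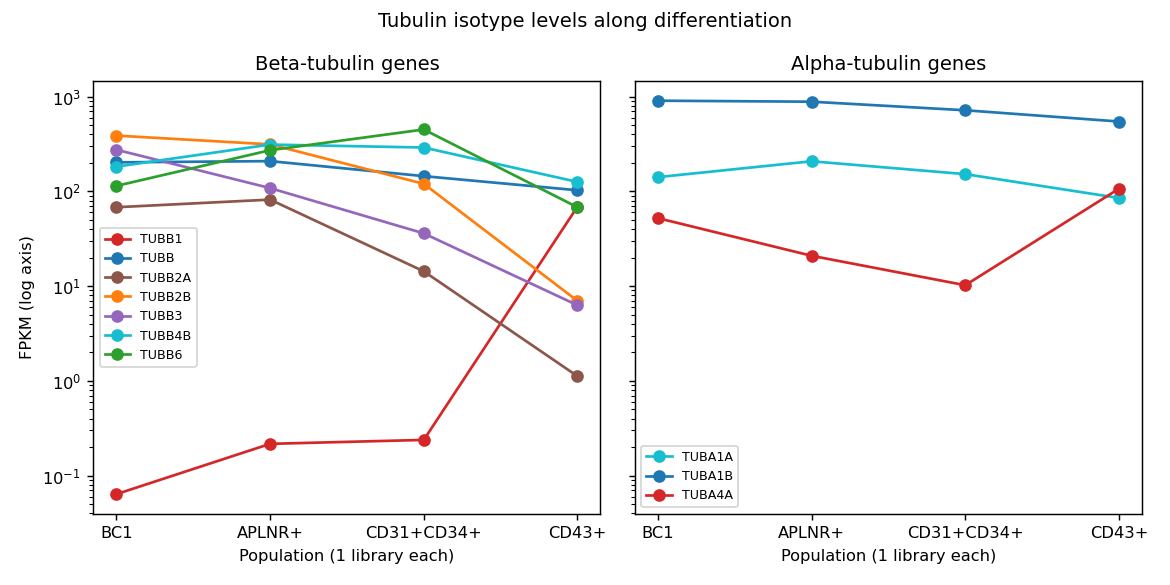
Level of each tubulin gene (vertical axis, FPKM, log axis) in the 4 populations (horizontal axis, 1 library each), with beta-tubulins on the left and alpha-tubulins on the right; points are single libraries and lines join the points of a gene. TUBB1 lies between 0.0637 and 0.238 FPKM in the first 3 populations and reaches 68.9 FPKM in CD43+ cells, while TUBB2A, TUBB2B and TUBB3 end at 1.12, 6.99 and 6.28 FPKM.

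TUBB2A, TUBB2B and TUBB3 were highest in the early populations and lowest in CD43+ cells. TUBB2B, at chr6:3224261-3231730 on the minus strand, was measured at 388 FPKM in BC1, 314 FPKM in APLNR+ cells, 120 FPKM in CD31+CD34+ cells and 6.99 FPKM in CD43+ cells. Each library stood below the one before. The first difference, -0.31, did not pass the threshold. TUBB2B fell by 1.38 at the second step, to a level 2.61-fold lower (2.52 to 2.70), and fell by 3.92 at the third, to a level 17.2-fold lower (15.2 to 19.6).

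TUBB2A, its near-identical neighbour at chr6:3153669-3157526 on the same strand, had 68.1 FPKM in BC1, 81.9 FPKM in APLNR+ cells, 14.3 FPKM in CD31+CD34+ cells and 1.12 FPKM in CD43+ cells. It was high in the first 2 populations and left with about 32 fragments in the last. It fell by 2.44 at the second step, 5.72-fold (5.16 to 6.34), and fell by 2.85 at the third, 12.8-fold (8.84 to 18.8). The level of TUBB2A relative to TUBB2B stayed between 0.119 and 0.261 in the 4 libraries, while both levels moved by far more.

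TUBB3, at chr16:89921392-89938761 on the plus strand, measured 275 FPKM in BC1, 108 FPKM in APLNR+ cells, 36.0 FPKM in CD31+CD34+ cells and 6.28 FPKM in CD43+ cells. It was the only gene of the 10 that fell at every step. The differences were -1.34, -1.56 and -2.35, and the levels 2.54-fold (2.44 to 2.64), 3.01-fold (2.82 to 3.21) and 5.74-fold (4.94 to 6.69) lower. Between BC1 and CD43+ cells the levels differed 60.7-fold for TUBB2A, 55.6-fold for TUBB2B and 43.8-fold for TUBB3, all lower in CD43+ cells.

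In the neuronal list 7 genes fell from BC1 to CD43+ cells and 0 rose, where 18.9% of all genes fell and 15.2% rose. Of the 12 genes of the list 11 passed the filter. Of these, 7 fell from BC1 to APLNR+ cells, 7 at the second step and 3 at the last, against 2, 0 and 1 that rose. Of all genes 9.32%, 11.4% and 13.5% fell and 9.15%, 13.0% and 7.63% rose at these steps. The median differences of the list were -1.21, -1.39 and -0.12, beside 0.00, 0.01 and -0.08 over all genes, so the last was close to that of all genes. The summed level was 200 FPKM in BC1, 167 FPKM in APLNR+ cells, 42.0 FPKM in CD31+CD34+ cells and 8.79 FPKM in CD43+ cells. Most of the BC1 sum was RBFOX3, a neuronal splicing factor, at 132 FPKM, which fell to 21.4 FPKM in CD31+CD34+ cells and 0.246 FPKM in CD43+ cells, whereas NCAM1, a neural cell adhesion molecule also found in mesoderm, rose from 2.11 to 70.9 FPKM in APLNR+ cells. GAP43, a growth cone protein, and SCG3, a secretory granule protein, fell at the first step to 3.26 and 2.10 FPKM. ELAVL3 was listed at 0 in CD31+CD34+ and CD43+ cells. Whether neural cells in the cultures have a part in the tubulin levels was not tested.

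TUBB6, at chr18:12307669-12344320 on the plus strand, peaked in the endothelial population. Its values were 114 FPKM in BC1, 272 FPKM in APLNR+ cells, 450 FPKM in CD31+CD34+ cells and 68.0 FPKM in CD43+ cells. CD31+CD34+ cells were the highest and CD43+ cells the lowest of the 4. It rose by 1.24 at the first step, 2.38-fold (2.30 to 2.47), and it was the only tubulin gene of the 10 to do so. The second difference of 0.72 did not pass the threshold, and at the last step TUBB6 fell by 2.71, 6.62-fold (6.36 to 6.90).

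TUBB4B, at chr9:137241213-137243707 on the plus strand, measured 183 FPKM in BC1, 312 FPKM in APLNR+ cells, 291 FPKM in CD31+CD34+ cells and 126 FPKM in CD43+ cells. The middle populations were high and CD43+ cells low. Its single change past the threshold was the last, where it fell by 1.20, or 2.31-fold (2.22 to 2.40). TUBB, at chr6:30720201-30725426 on the plus strand, had 203 FPKM in BC1, 209 FPKM in APLNR+ cells, 145 FPKM in CD31+CD34+ cells and 103 FPKM in CD43+ cells. No step of TUBB passed the threshold, and the difference of -0.97 between BC1 and CD43+ cells passed it only with FPKM rescaled to equal sums, at -1.04 over all genes and -1.01 without mitochondrial and globin genes.

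The other alpha members did not pass the threshold at any step. TUBA1B, at chr12:49127782-49131397 on the minus strand, was the highest of the 10 genes in every library, with 907 FPKM in BC1, 885 FPKM in APLNR+ cells, 719 FPKM in CD31+CD34+ cells and 547 FPKM in CD43+ cells. Its highest value was 1.66 times its lowest, the narrowest range of the 10 genes. TUBA1A, a minus-strand neighbour at chr12:49184796-49189324 that is prominent in developing neurons, had 142 FPKM in BC1, 208 FPKM in APLNR+ cells, 152 FPKM in CD31+CD34+ cells and 85.2 FPKM in CD43+ cells.

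**Figure D2:**
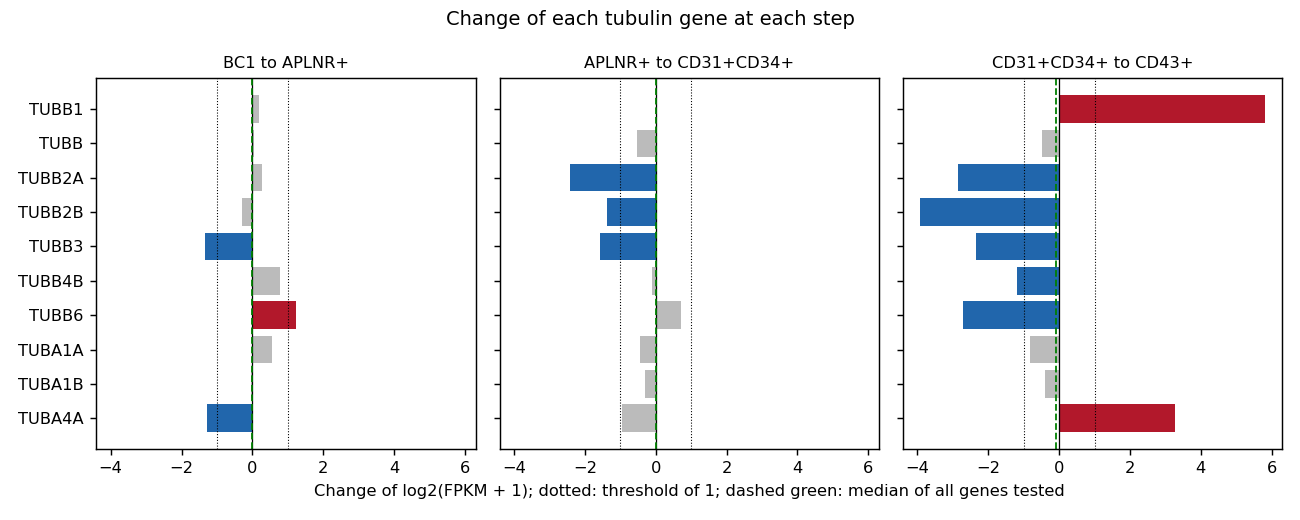
Difference of log2(FPKM + 1) for each tubulin gene (horizontal bars) at each of the 3 steps (panels), red where it rose and blue where it fell by at least 1, with dotted lines at the threshold and a dashed line at the median of all genes tested. At the last step TUBB1 and TUBA4A extend to 5.82 and 3.26, and 5 beta-tubulins lie below -1.

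Counted together, 1 of the 10 genes rose and 2 fell from BC1 to APLNR+ cells, where 9.15% of all 17137 genes rose and 9.32% fell. At the second step, to CD31+CD34+ cells, 3 fell and 0 rose, with backgrounds of 11.4% falling and 13.0% rising. From CD31+CD34+ to CD43+ cells 2 rose and 5 fell, with backgrounds of 7.63% and 13.5%. Over the whole course, from BC1 to CD43+ cells, 2 rose and 3 fell, with backgrounds of 15.2% and 18.9%. The first step is thus near the background, and the last step holds the most calls, 7 of 10 genes. The median difference of the 10 genes was 0.12, -0.49 and -1.01 at the 3 steps, while that of all genes was 0.00, 0.01 and -0.08. Consecutive steps share a library, so a low or high value in the shared library enters both.

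Within each library the order of levels changed along the course. In BC1 it ran TUBA1B, TUBB2B, TUBB3, TUBB, TUBB4B, TUBA1A, TUBB6, TUBB2A, TUBA4A and TUBB1, and every neighbour differed beyond counting error. In APLNR+ cells TUBB2B and TUBB4B did not differ beyond counting error, with a ratio of 1.01 (0.978 to 1.03), nor did TUBB and TUBA1A, with an interval of the ratio from 0.975 to 1.03. In CD31+CD34+ cells TUBB6 had moved up to second place, behind TUBA1B, and TUBB1 remained last. In CD43+ cells the order was TUBA1B, TUBB4B, TUBA4A, TUBB, TUBA1A, TUBB1, TUBB6, TUBB2B, TUBB3 and TUBB2A. There TUBA4A and TUBB were within counting error of each other (1.04, 0.996 to 1.08), as were TUBB1 and TUBB6 (1.01, 0.966 to 1.06) and TUBB2B and TUBB3 (1.11, 0.925 to 1.34).

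Because FPKM is a level per length, the genes of a class can be added and each expressed as a share of its class. TUBB2B was the leading beta isotype of BC1, with 31.5% of the summed beta FPKM (95% counting interval 31.1 to 32.0). In APLNR+ cells TUBB2B and TUBB4B were level, at 24.2% (23.8 to 24.6) and 24.1% (23.7 to 24.5). TUBB6 led in CD31+CD34+ cells with 42.6% (42.2 to 43.1), and TUBB4B led in CD43+ cells with 33.1% (32.3 to 34.0). The leading beta isotype of BC1, CD31+CD34+ cells and CD43+ cells was therefore a different gene in each.

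TUBB2A, TUBB2B and TUBB3 together made up 59.4% of beta-tubulin FPKM in BC1, 38.8% in APLNR+ cells, 16.1% in CD31+CD34+ cells and 3.79% in CD43+ cells. The broadly expressed TUBB and TUBB4B went the other way, from 31.3% through 40.2% and 41.2% to 60.2%, although the FPKM of both was lower in CD43+ cells than in BC1. TUBB6 accounted for 9.29%, 21.0%, 42.6% and 17.9% in the same order. TUBB1 held 0.00518% in BC1, 0.0167% in APLNR+ cells, 0.0225% in CD31+CD34+ cells and 18.1% (17.6 to 18.6) in CD43+ cells, a share close to that of TUBB6 there.

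Among the alpha members TUBA1B held 82.4%, 79.5%, 81.6% and 74.0% in the order of differentiation. TUBA1A held 12.9%, 18.7%, 17.3% and 11.5%. TUBA4A held 4.74%, 1.88%, 1.16% and 14.4% (14.0 to 14.9), and it passed TUBA1A in CD43+ cells only. TUBA1C, an alpha-tubulin outside the 10 genes, was at 225 to 301 FPKM, and with every protein-coding alpha gene in the sum the TUBA1B share ran from 55.3% to 68.2%.

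**Figure D3:**
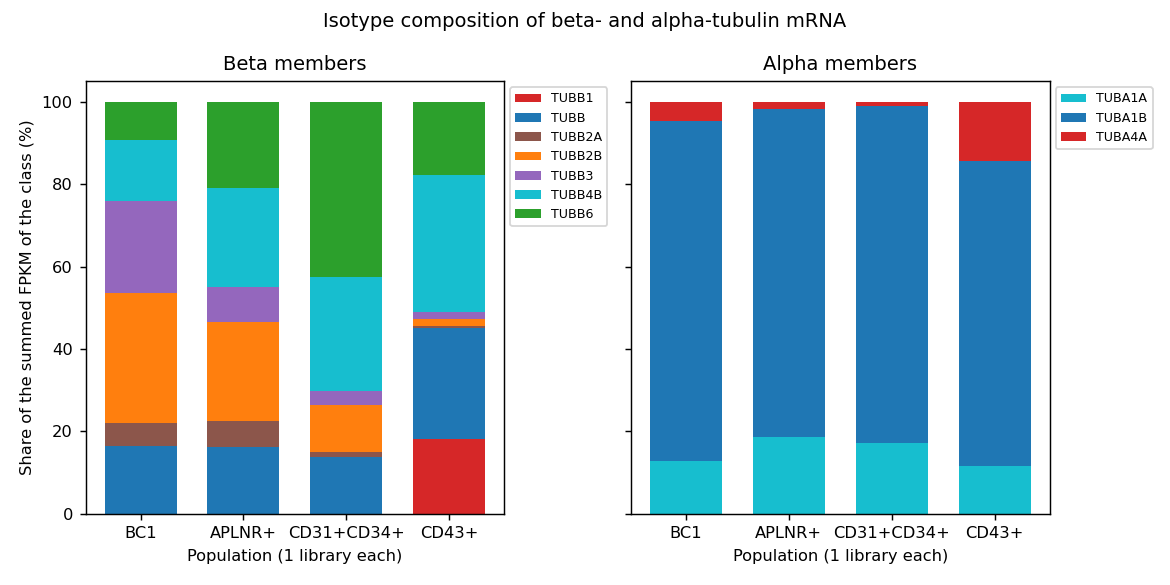
Share of each gene in the summed FPKM of its class (vertical axis, %), for the 7 beta members on the left and the 3 alpha members on the right, in the 4 populations (1 library each). TUBB2A, TUBB2B and TUBB3 shrink from 59.4% to 3.79% of the beta sum, and TUBB1 takes 18.1% in CD43+ cells.

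The sum of the beta members was 1231 FPKM in BC1, 1297 FPKM in APLNR+ cells, 1057 FPKM in CD31+CD34+ cells and 380 FPKM in CD43+ cells. The alpha sum was 1101, 1114, 881 and 739 FPKM. The classes were thus of similar size until day 5, with a beta to alpha ratio of 1.12, 1.16 and 1.20, and unequal in CD43+ cells, with a ratio of 0.514. From CD31+CD34+ to CD43+ cells the beta sum was 2.78-fold lower and the alpha sum 1.19-fold lower. With all protein-coding tubulin genes of each class, an alternative chosen after seeing the data, the ratios were 0.951, 0.917, 0.958 and 0.396, so which class is larger before day 8 depends on the genes counted, whereas the lower ratio in CD43+ cells does not. The 10 genes together made up 0.371%, 0.390%, 0.319% and 0.170% of all FPKM.

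**Figure D4:**
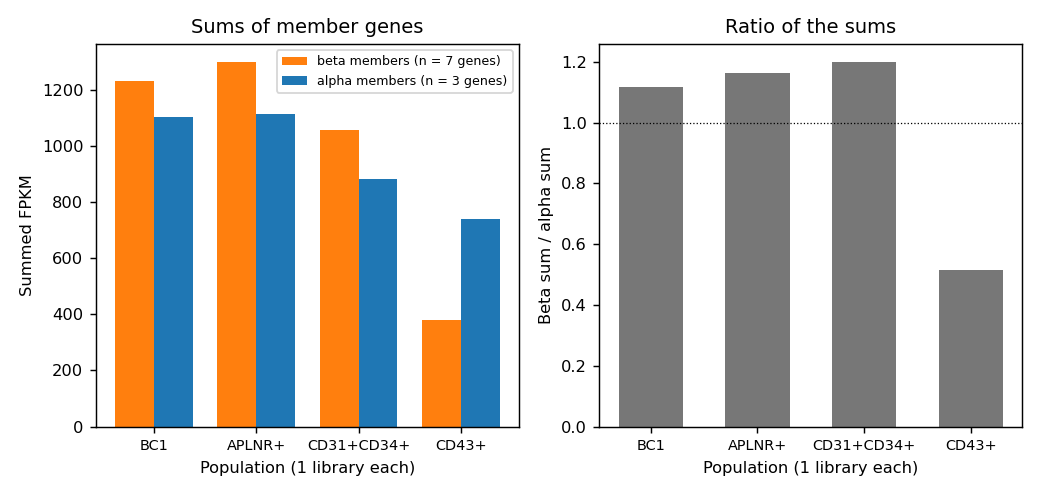
Summed FPKM of the 7 beta and 3 alpha members (left) and the ratio of the beta to the alpha sum (right, dotted line at 1) in the 4 populations, 1 library each; bars start at 0. The beta sum drops to 380 FPKM in CD43+ cells while the alpha sum is 739 FPKM, and the ratio drops to 0.514.

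Some mitotic genes fell at the last step. Of 16 genes for the cell cycle and mitosis 7 fell from CD31+CD34+ to CD43+ cells and 0 rose, with a median of -0.99, and their summed level was 1127 FPKM in BC1, 1103 FPKM in APLNR+ cells, 1127 FPKM in CD31+CD34+ cells and 813 FPKM in CD43+ cells. Of all genes 13.5% fell and 7.63% rose at that step. MKI67, a proliferation marker, fell from 40.2 to 15.0 FPKM, CENPE, a mitotic kinesin, from 18.3 to 5.75 FPKM and CCNB1, the cyclin of mitotic entry, from 94.9 to 39.3 FPKM. The replication genes PCNA, MCM2 and MCM3 had differences of 0.65, 0.73 and 0.35, none past the threshold. The part of cell division in the tubulin levels was not tested.

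The genes that fold tubulin or adjust its mRNA form a list of 24, which holds the prefoldin and CCT chaperonin subunits, the tubulin cofactors TBCA to TBCE, and TTC5, which recognises nascent tubulin and starts the decay of its mRNA. All 24 passed the filter, and none passed the change threshold at any of the 3 steps. Their medians were 0.01, -0.29 and 0.02, beside 0.00, 0.01 and -0.08 over all genes, which are also the values to set beside the list medians that follow. The shares of all genes to set beside the list counts were 9.15%, 13.0% and 7.63% rising and 9.32%, 11.4% and 13.5% falling. Between BC1 and CD43+ cells PFDN4, a prefoldin subunit, fell from 88.4 to 41.2 FPKM, a difference of -1.08, and no other gene of the folding list did. In the gamma-tubulin and nucleation list of 22 genes the single change over the 3 steps was TUBG2, a gamma-tubulin, which fell from 14.1 to 6.39 FPKM at the last step, and the medians were 0.22, 0.11 and -0.19. TUBG1, the main gamma-tubulin, ranged from 80.4 to 131 FPKM.

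Of 12 further tubulin genes 9 passed the filter, and 0, 2 and 3 of them rose and 1, 0 and 2 fell at the 3 steps, with medians of -0.01, 0.52 and -0.20. TUBA8, an alpha-tubulin with a divergent sequence, was at 1.24, 1.09 and 1.99 FPKM in the first 3 populations and rose to 17.1 FPKM in CD43+ cells, 8.57-fold (6.54 to 11.5). TUBB4A, a beta-tubulin of brain, fell from 30.8 to 1.22 FPKM at the first step, 25.3-fold (12.5 to 59.1), and rose at the later steps to 3.81 and 11.4 FPKM. TUBB4A therefore fell as TUBB3 did at the first step but, unlike it, rose afterwards.

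Of the tubulin-modifying enzymes and their partners 19 of 21 genes passed the filter, and 6 rose and 2 fell at the second step, where 13.0% of all genes rose and 11.4% fell. VASH1, a vasohibin that removes the last tyrosine of alpha-tubulin and is known from endothelial cells, had 3.26 FPKM in BC1, 8.28 FPKM in APLNR+ cells, 154 FPKM in CD31+CD34+ cells and 54.0 FPKM in CD43+ cells. It rose 18.6-fold (16.2 to 21.5) at the second step and fell 2.86-fold (2.69 to 3.04) at the third. SVBP, its binding partner, was at 36.7 FPKM in CD31+CD34+ cells and fell to 17.0 FPKM. VASH2, the related enzyme, ran the other way and had 49.5, 6.77, 2.01 and 0.837 FPKM. TTLL3, a glycylating ligase, rose from 4.69 to 20.4 FPKM at the second step, and the deacetylase SIRT2 from 12.2 to 31.5 FPKM, while TTLL12 fell from 44.2 to 14.6 FPKM. At the first step 1 of the 19 rose and 3 fell, and at the last 0 rose and 2 fell. The medians were 0.07, 0.17 and -0.34.

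Among proteins that stabilise microtubules or bind their ends, 27 of 30 genes passed the filter. At the 3 steps 3, 2 and 1 rose and 2, 6 and 8 fell, with medians of 0.11, -0.16 and -0.34. The counts at the first step were near the shares of all genes, 9.15% rising and 9.32% falling. MAP7D1, a MAP7 family protein, had 39.8 FPKM in BC1, 171 FPKM in APLNR+ cells, 265 FPKM in CD31+CD34+ cells and 94.3 FPKM in CD43+ cells. Like TUBB6 it was highest in CD31+CD34+ cells, but its lowest library was BC1. MAP4, the broadly expressed structural MAP, and MAP1S fell at the last step from 58.5 to 25.8 FPKM and from 97.8 to 37.4 FPKM. CAMSAP3, a minus-end protein, went from 23.1 FPKM in BC1 to 0.419 FPKM in CD43+ cells, and DCLK1, a doublecortin family kinase of neurons, from 10.6 to 0.118 FPKM at the first step. CLIP2 and EML3 were higher in CD43+ cells than in BC1, at 45.1 against 15.0 FPKM and 54.3 against 14.5 FPKM.

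Of 16 destabilising and severing proteins 13 passed. STMN1, or stathmin, which sequesters tubulin dimers, was at 302, 221, 366 and 132 FPKM in the order of differentiation and fell 2.78-fold (2.65 to 2.92) at the last step. STMN3, its neuronal relative, fell from 40.4 to 9.05 FPKM at the first step. In all, 0, 1 and 0 of the 13 rose and 1, 1 and 3 fell at the 3 steps, with medians of -0.04, 0.20 and -0.49.

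**Figure D5:**
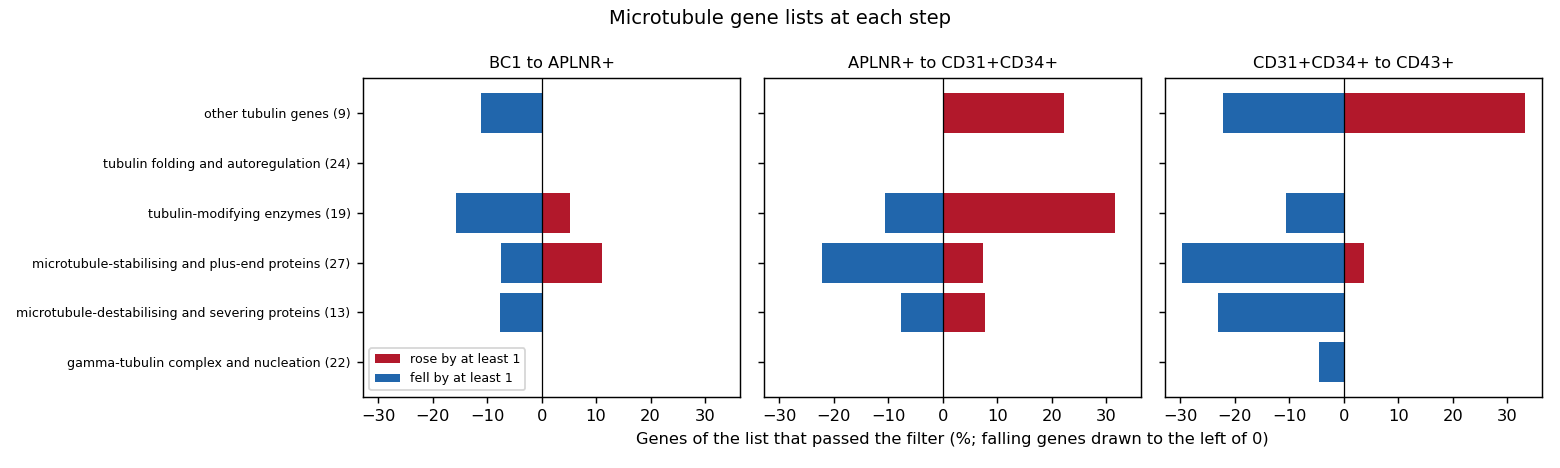
Share of the genes of 6 microtubule lists that rose (red, right of 0) or fell (blue, drawn left of 0) by at least 1 on the log2(FPKM + 1) scale at each step; the number of genes that passed the filter stands in brackets. The list for folding and autoregulation has no bar at any step, while 8 of 27 stabilising proteins fell at the last.

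The genes whose profile over the 4 libraries lay nearest to a tubulin gene were taken from 8170 protein-coding genes with at least 10 FPKM in some library. Likeness was the root mean squared difference of the log2(FPKM + 1) profiles, each less its own mean, and was computed for the 6 genes that changed by at least 2 at some step. Nearest to TUBB1 were SRGN (0.103), a granule proteoglycan core, HBA1 (0.197), an alpha-globin, GP1BB (0.228), a subunit of the platelet receptor for von Willebrand factor, and APBB1IP (0.263). SRGN was at 0.160, 0.591, 0.410 and 85.8 FPKM, so it was also high in CD43+ cells alone, and in the other 3 libraries both genes lie where the pseudocount of 1 flattens differences. For TUBB3 the nearest were WFDC2 (0.137), SBK1, GFPT2 and LRRN1, for TUBB2A COL26A1 (0.230), GLI2, FAM19A5 and PHGDH, and for TUBB2B TAGLN (0.380), VCAN, COL26A1 and IMPA2. COL26A1 was thus near both TUBB2 genes. For TUBB6 they were FAM114A1 (0.138), TTC28, CASTOR1 and MDFI, and for TUBA4A TSPAN33 (0.278), DNAAF3, PRKCQ and MYCN. With profiles scaled to their maximum instead, at most 1 of the 4 genes was shared for any of the 6, so these names depend on the measure.

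The 250 bases before each RefSeq start site (GRCh38.p14) were read for all 10 genes. RefSeq and GENCODE starts can differ. For TUBB1 the window, chr20:59019179-59019428, runs past the GENCODE start at 59019254, so part of it lies inside that locus. TUBB1 had 2 CpG dinucleotides there, the fewest of the 10, and 14.7% of the 35116 promoters in the table had fewer. The other 9 genes had 9 to 43, and the median over all promoters was 11. The motifs searched, on both strands, were the TATA box TATAAA, the CCAAT box CCAAT, the GC box GGGCGG, the CRE as TGACGTCA with its core ACGTCA, which overlaps it, the NF-E2 or AP-1 core as TGACTCA or TGAGTCA, the GATA motif as AGATAA or TGATAA, and the RUNX motif TGTGGT. Of all promoters 10.7%, 32.0%, 42.6%, 1.65%, 7.10%, 4.20%, 14.6% and 11.0% held them, in that order. In TUBB1 a single GC box was found and none of the other letters, which says only that they are not in this window. TUBB4B held 3 CCAAT boxes, TUBA1A 2 and TUBB2B 1. TUBB, TUBB3 and TUBB6 have 2 start sites each, and 1 CCAAT box lies before 1 of them. Only exact letters were counted, so variants such as TATATAAG in TUBB4B are not among the TATA boxes. TUBB2A, which ended lowest of the 10, was the only one with the exact letters TATAAA and with the full CRE. Their first bases lie 30 and 60 bases before the start. The TUBB2A promoter is shown for that pair, in capitals, as a description of the sequence.
TUBB2A promoter, GRCh38.p14, chr6:3157545-3157794, minus strand: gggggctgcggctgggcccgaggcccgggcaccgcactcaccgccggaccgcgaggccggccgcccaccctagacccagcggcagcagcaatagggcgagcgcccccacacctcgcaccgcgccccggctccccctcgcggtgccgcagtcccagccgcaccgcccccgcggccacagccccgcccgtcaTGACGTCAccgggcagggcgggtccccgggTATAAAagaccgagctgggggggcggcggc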

How the data were processed

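RNA sequencing libraries were made by the authors from total RNA with an Illumina TruSeq kit, 1 library for each of 4 populations, which were grouped by the labels. The authors deposited gene-level FPKM values. The submitters' processing notes name BWA, Bowtie, RSEM and hg19, without role or version, whereas the gene identifiers and loci match GENCODE release 29 on GRCh38 (58011 of 58274 identifiers, 99.5%), so GRCh38 positions, counted from 1, are given and the build used for alignment is unresolved. Strand use is not given in the sources used here. Rows of an identifier on more than 1 row (90 identifiers) were summed.

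Depth was fitted from the steps between low FPKM values of genes with 1 transcript of at least 1000 bases, and 92.4% to 94.7% of these values then fell within 0.1 of a whole fragment number. The fit was tested on simulated data. The length taken off was 260 to 280 bases. Fragments of the tubulin isotypes listed at the start came from their principal transcript length. For genes of the lists the length was set differently and can be far shorter. TUBB4A, at 30.8 FPKM in BC1, was given about 185 fragments, while TUBA4A, at 52.2 FPKM there, was given about 1956. Intervals (95%, exact Clopper-Pearson for folds, logit for shares) cover counting error only. For list genes they measure it only as far as the length used holds. Values were taken as log2(FPKM + 1), with a filter of 1 FPKM in at least 1 library and a threshold of 1. With 1 library per population no test was possible, and p-values are not given.

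The 10 genes, the 11 gene lists and the rules were chosen with earlier results of these data known. Named were the 10 genes, the sorting markers, up to 3 list genes in each direction and step where the higher library reached 10 FPKM, and the 4 nearest profiles. Genes named because they were listed at 0, list genes under 10 FPKM, and PCNA, MCM2 and MCM3 were added after their values were seen. Coding sequences came from GENCODE and promoters from RefSeq, where all 10 symbols matched. Mitochondrial genes took 5.80% to 8.16% of FPKM, and globins 1.75% in CD43+ cells. A list of 12 reference genes had 0, 0 and 2 rising and 0, 2 and 0 falling at the 3 steps. A few items of the lists and sequences are not reported here. Alternatives covered pseudocount, filter, threshold, scaling, denominators and likeness measure. Python 3.11.15, numpy 2.4.6, pandas 2.3.3, scipy 1.17.1, Biopython 1.88 and matplotlib 3.10.9 were used.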

Additional observations from a re-analysis of the deposited data

How the results depend on the processing

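No paired analysis was possible because each population had 1 library, and no library could be left out for the same reason. Of 146 recomputed summary values 101, and of 432 single values 376, stayed within their limits of change. Of the 40 differences of the 10 genes, the 18 past the threshold kept their sign under every setting tried. That outcome was fixed beforehand for some settings, since a pseudocount cannot reverse a sign and each gene had a single row. The scalings shifted no difference by more than 0.543, against a threshold of 1. The kept signs therefore carry no information on how firm the results are. With a pseudocount of 0.01, 2 genes rose at the first step in place of 1. At a threshold of 2 the tubulin counts were 0 rising and 0 falling at the first step and 0 and 1 at the second. They were 2 and 4 at the last step, and 1 and 3 over the whole course. All genes counted 460 rising and 393 falling, 699 and 539, 391 and 741, and 921 and 1160 over the whole course. Rescaling to equal sums, with or without mitochondrial and globin genes, left 1 gene rising over the whole course, since TUBA4A no longer passed. All genes falling at the first step were 1019 with a filter of 5 FPKM and 2575 with a pseudocount of 0.1, and 3488 at the last step with the latter.

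With all protein-coding genes in the denominator, the share of TUBB2B in BC1 was 30.7%, those of TUBB1 and TUBB4B in CD43+ cells 17.6% and 32.2%, that of TUBA1B 68.2%, 62.5%, 64.8% and 55.3% in the 4 populations and that of TUBA4A in CD43+ cells 10.8%. TUBB2A and TUBB2B as 1 sum held 37.1% in BC1 and 30.5% in APLNR+ cells, which leaves that sum ahead of TUBB4B there. With median-of-ratios scaling, which moved the median of all genes by at most 0.0751, the beta sum stood at 1.03, 0.795 and 0.387 times the sum before at the 3 steps and 0.316 over the whole course, and the alpha sum at 0.986, 0.772, 0.902 and 0.686. With all protein-coding genes, an alternative chosen after seeing the data, the beta sum stood at 1.03 at the first and 0.368 at the last step, the alpha sum at 1.07, 0.891 at the last step and 0.744 over the whole course, and the beta to alpha ratio at 0.951, 0.917, 0.958 and 0.396. The alpha sum at the first step thus lies on either side of 1 by setting. The mean difference of a list had the opposite sign to its median for the tubulin-modifying enzymes at the first step (-0.25) and, at the last, for the further tubulin genes (0.11) and the folding list (-0.03). The same held for the cell cycle list at the second step (median -0.03, mean 0.11), the reference list at the first (-0.10, 0.04) and the further tubulin genes over the whole course (-0.06, 0.23). Depth limits TUBB1 before day 8 (about 4 to 18 fragments) and TUBB2A in CD43+ cells (about 32).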

Other observations

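Tubulin pseudogenes together were listed at 13.1 FPKM in BC1, 12.2 FPKM in APLNR+ cells, 5.99 FPKM in CD31+CD34+ cells and 3.56 FPKM in CD43+ cells. These sums are small beside those of the beta and alpha members. They were lower in each population than in the one before, as were the levels of TUBB2B, TUBB3 and TUBA1B. TUBAL3, a divergent tubulin gene, had 0.0660 FPKM in BC1, 0.0375 FPKM in APLNR+ cells and 3.34 FPKM in CD43+ cells, where it rose by 1.12 from CD31+CD34+ cells. MAP1A, a microtubule-associated protein of neurons, had 0.469, 0.582, 1.80 and 6.95 FPKM and also rose there. HDAC6, a tubulin deacetylase, had 22.0, 26.2, 50.5 and 76.9 FPKM and rose over the whole course, although no single step passed the threshold.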
